A study of Neurospora crassa with 12 samples.

Results

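The comparison described here is that of wild-type *Neurospora crassa* germinated with abundant inorganic phosphate (high-Pi) and with scarce phosphate (low-Pi). It takes in the 6 RNA-Seq libraries that GEO's labels give as wild type (strain 74A), of 12 in the series, 3 from high-Pi and 3 from low-Pi. The other 6 libraries, labelled *mus-52*, are not part of the comparison. In both media, conidia from 6-day cultures had germinated for 5 h at 30 °C with shaking in medium with 44 mM sucrose, at pH 5.4 in 50 mM sodium citrate. High-Pi held 10 mM Pi and low-Pi 10 µM Pi, and the replicates of each medium are numbered I, II and III and described as biological triplicates. All 6 libraries come from 1 strain at 1 time, and the material is germinating conidia and young mycelium together. In such bulk RNA, fewer cells of a kind and less RNA per cell cannot be told apart.

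*N. crassa* senses Pi through a short chain of regulators. When Pi is scarce, the ankyrin-repeat protein NUC-2 holds back the cyclin PREG and its partner kinase, so that the helix-loop-helix factor NUC-1 stays in the nucleus and turns on genes of Pi acquisition. When Pi is plentiful, the cyclin and kinase act on NUC-1 and these genes are shut down. The genes so controlled include the high-affinity permeases *pho-4* and *pho-5*, the alkaline phosphatase *pho-2* and the acid phosphatase *pho-3*.

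Between 17574263 and 32392814 reads were counted per library, and 8337 to 8658 of 9730 genes had at least 1 count. Replicate I stood apart in both media. Replicates II and III correlated across genes at r = 0.989 in high-Pi and r = 0.994 in low-Pi on the scale of log2 CPM (counts scaled to a library of 1000000 after TMM normalization), while replicate I correlated with them at 0.935 to 0.947 in high-Pi and at 0.924 to 0.927 in low-Pi. The first principal component, with 53.1% of the variance, placed replicate I of high-Pi at 33.6 and replicate I of low-Pi at 61.4, and the other 4 libraries between -26.8 and -16.4. The third component, with 11.2%, placed replicates II and III of high-Pi at 16.3 and 23.3, those of low-Pi at -19.5 and -18.2, and both replicates I near 0. Of 19 conidiation genes, 18 were counted in all 6 libraries. The exception was *con-13*, at 0 counts in replicate I of low-Pi and at 0.668 to 2.59 CPM elsewhere. The 19 summed to 3589 to 5714 CPM in high-Pi and to 4383 to 5672 CPM in low-Pi. Without *ccg-1*, a gene higher in high-Pi, replicates I, II and III summed to 2760, 4263 and 4935 CPM in high-Pi. Those of low-Pi then summed to 4279, 5402 and 5470 CPM, each above the high-Pi library of the same number. Most of each sum was *ccg-6* (1547, 3063 and 3643 CPM in high-Pi, against 3423, 4115 and 4170 CPM in low-Pi). The next most abundant member, *ccg-16*, was higher in high-Pi (861, 780 and 851 CPM, against 565, 675 and 666 CPM). The sums thus do not describe the markers as a group. Because replicate I stood apart, results are given for all 6 libraries and for replicates II and III alone.

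Over the 6 libraries, no gene was called between the media by edgeR. With its quasi-likelihood test and Benjamini-Hochberg adjustment, 0 of 7489 genes tested (0%) had an adjusted p of at most 0.05, and the smallest adjusted p was 0.212. At an unadjusted p under 0.05 there were 388 genes (5.18%), of which 59 (0.788%) also had a log2 fold change of 1.5 or more and 8 (0.107%) one of -1.5 or less. Other tools run on the same libraries made calls at these thresholds, namely 27 genes up and 2 down with DESeq2, and 45 up and 24 down with limma's voom and sample quality weights. In the last of these replicate I carried a weight of 0.132 in high-Pi and of 0.0978 in low-Pi, against 1.18 to 4.57 for the other 4 libraries. A fit that also held the libraries labelled *mus-52* made 16 calls up and 1 down.

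The genes nearest to a call over the 6 libraries were picked only from genes whose media did not overlap. Their change also had to reach the fold change threshold above. That the media lay apart in these genes was thus a condition of the choice and not a result. Within this set they are given by unadjusted p. The hypothetical protein gene NCU00322 had 162, 118 and 110.5 CPM in high-Pi, against 32.9, 38.5 and 31 CPM in low-Pi in replicates I, II and III. It had the smallest unadjusted p, 7.54e-05, at a log2 fold change of 1.93 ± 0.24 (standard error) and an adjusted p of 0.212. In order of unadjusted p it was followed by NCU03372 for a nonspecific lipid-transfer protein (63.8, 66.5 and 60.3 CPM in high-Pi, against 21, 21.4 and 24.6 CPM in low-Pi), the hypothetical protein gene NCU07791 (102, 92.8 and 76.5 CPM in high-Pi, against 27.2, 29.5 and 32.8 CPM in low-Pi), NCU03430 and *ccg-1*. In the other direction the smallest unadjusted p within this set (1.69e-04, edgeR) was that of NCU08441. NCU08441 encodes a non-ribosomal peptide synthetase, an enzyme that joins amino acids into small peptides without the ribosome. After it came NCU02880 (22.5, 47.8 and 51.6 CPM in high-Pi, against 219.8, 94.4 and 100.0 CPM in low-Pi), NCU07527 (8, 2 and 0 counts in high-Pi, against 12, 10 and 11 in low-Pi), NCU10304 (12, 15 and 20 counts in high-Pi, against 34, 66 and 42 in low-Pi) and NCU07748 (23.2, 15 and 18.4 CPM in high-Pi, against 137, 30.0 and 28.1 CPM in low-Pi). NCU02880 and NCU07748 were highest in replicate I of low-Pi.

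Replicates II and III alone gave many differences, most of them small. Of 7437 genes tested, 807 (10.9%) rose in high-Pi and 701 (9.43%) fell at an adjusted p of at most 0.05. A differentially expressed gene (DEG) was also required to change by 1.5 or more on the log2 scale, the threshold used in the study. This left 49 DEGs (0.659%), 29 up-regulated (0.39%) and 20 down-regulated (0.269%). Common dispersion, the squared biological coefficient of variation, was 0.00928 over these 4 libraries and 0.155 over all 6. With 2 libraries per medium, the counts moved with single libraries. Without replicate II of high-Pi the DEGs came to 54 up and 48 down, and without replicate III of high-Pi to 38 up and 31 down. Without replicate II or III of low-Pi the genes that passed on the adjusted p alone dropped to 265 or 276 up and 186 or 206 down. Of the 29 up-regulated DEGs 9, and of the 20 down-regulated DEGs 10, were DEGs in each of the 4 fits that left out a library.

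Replicate I took no part in those calls, so its pair of libraries gives a separate reading. Of the 29 up-regulated DEGs, 25 were also higher in replicate I of high-Pi than in replicate I of low-Pi. In 24 of the 29 all 3 high-Pi libraries lay above all 3 low-Pi libraries, where 26.6% of all genes with high-Pi above low-Pi in replicates II and III did so. Of the 20 down-regulated DEGs, 7 were also lower in high-Pi in replicate I, and 2 (NCU08441 and NCU02578) had all 6 libraries apart, where 15% of all genes with low-Pi above did so. For genes that passed on the adjusted p alone the pair of replicate I had the same direction in 391 of 807 (48.5%) that rose and in 300 of 701 (42.8%) that fell. Over all genes tested, 48.6% were higher and 51.4% lower in high-Pi in this pair.

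**Figure D1:**
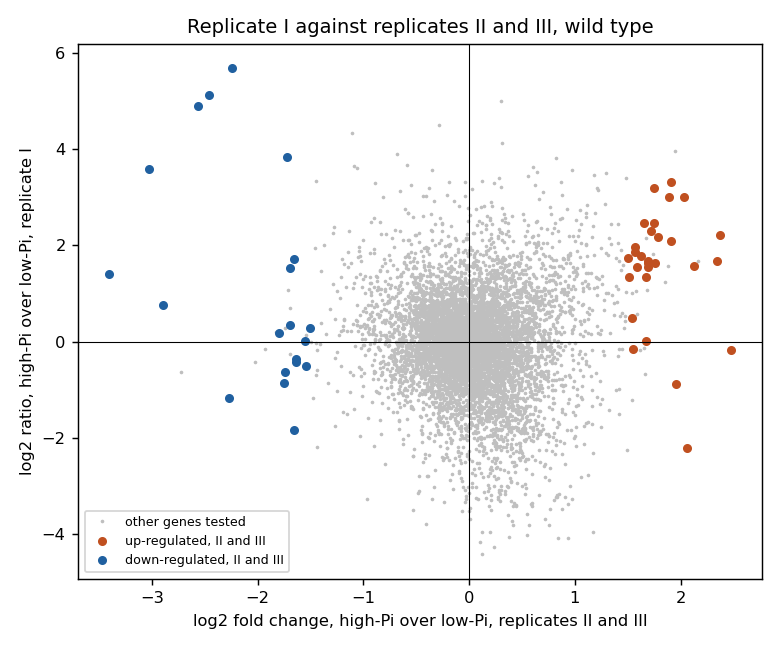
Each point is 1 of 7437 genes, with the log2 fold change of high-Pi over low-Pi in replicates II and III on the x axis and the log2 ratio of the 2 libraries of replicate I on the y axis. The 29 up-regulated DEGs lie mostly in the upper right (25 above 0), whereas 13 of the 20 down-regulated DEGs lie above 0.

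The most abundant of the up-regulated DEGs in high-Pi was *ccg-1* (NCU03753, chromosome V, 2302672 to 2303443 on NC12), a clock-controlled gene that glucose represses and one of the abundant messages of carbon-limited cells. It had 829, 706 and 779 CPM in high-Pi, against 104, 159 and 202 CPM in low-Pi. All high-Pi libraries lay far above all low-Pi libraries, and the change in replicates II and III was log2 fold change 2.04 ± 0.12, adjusted p = 1.13e-05 (± standard error, here and below). NCU05616 (chromosome VI, 1313344 to 1314856), annotated as an arsenite S-adenosylmethyltransferase, an enzyme that adds methyl groups to arsenic, had 67.2, 153 and 157 CPM in high-Pi, against 21.1, 29.4 and 31.7 CPM in low-Pi. Its levels did not overlap between the media, and it rose in replicates II and III by the largest amount among genes above 10 CPM in all high-Pi libraries (log2 fold change 2.34 ± 0.10, adjusted p = 1.36e-06). NCU17064 (chromosome VI, 406644 to 408368), named for resistance to 5-nitroimidazole antibiotics, had 130.5, 242 and 244 CPM in high-Pi, against 51.2, 78.3 and 74.1 CPM in low-Pi (log2 fold change 1.67 ± 0.10, adjusted p = 9.47e-06).

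Several hypothetical protein genes moved in the same way. NCU00322 (chromosome III, 3447697 to 3448818), whose levels are given above, rose (log2 fold change 1.72 ± 0.12, adjusted p = 4.01e-05). NCU03430 (chromosome II, 744721 to 745936) had 44.2, 30.4 and 35.4 CPM in high-Pi, against 9.65, 9.27 and 9.85 CPM in low-Pi (log2 fold change 1.78 ± 0.15, adjusted p = 7.52e-05), and its 3 low-Pi values lay within 1 CPM of each other. NCU09604 (chromosome II, 73202 to 74342) had 7.12, 15.4 and 15.1 CPM in high-Pi, against 0.634, 3.54 and 4.5 CPM in low-Pi (log2 fold change 1.91 ± 0.20, adjusted p = 2.57e-04). In that gene replicate I was lowest in each medium, but the media stayed apart. NCU10144, NCU06597, NCU07441 and NCU04897, named after their values were seen, rose by log2 1.70, 1.69, 1.63 and 1.52, each with no overlap over the 6 libraries. NCU06803 (chromosome II, 1895966 to 1898452) encodes glutamate decarboxylase, which turns glutamate into γ-aminobutyrate. It had 14.5, 5.2 and 2.47 CPM in high-Pi, against 1.5, 1.09 and 1.16 CPM in low-Pi (log2 fold change 1.75 ± 0.41, adjusted p = 0.014). It overlaps another annotated gene, so its count is less certain.

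Some of the largest fold changes rested on few reads. NCU07122 had 26, 13 and 22 counts in high-Pi, against 15, 3 and 4 in low-Pi, NCU06455 4, 12 and 14 counts in high-Pi, against 16, 3 and 4 in low-Pi and NCU02673 7, 15 and 26 counts in high-Pi, against 8, 3 and 9 in low-Pi. In these genes high-Pi was above low-Pi in replicates II and III, while the libraries of replicate I did not follow. NCU04197 (79, 32 and 50 counts in high-Pi, against 7, 7 and 11 in low-Pi), NCU06591 (61, 34 and 15 counts in high-Pi, against 9, 8 and 5 in low-Pi), NCU17044 (105, 21 and 25 counts in high-Pi, against 11, 6 and 8 in low-Pi) and NCU09953 (139, 39 and 39 counts in high-Pi, against 7, 16 and 8 in low-Pi) were also scarce, but in each of them the 2 media did not overlap in CPM over the 6 libraries.

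**Figure D2:**
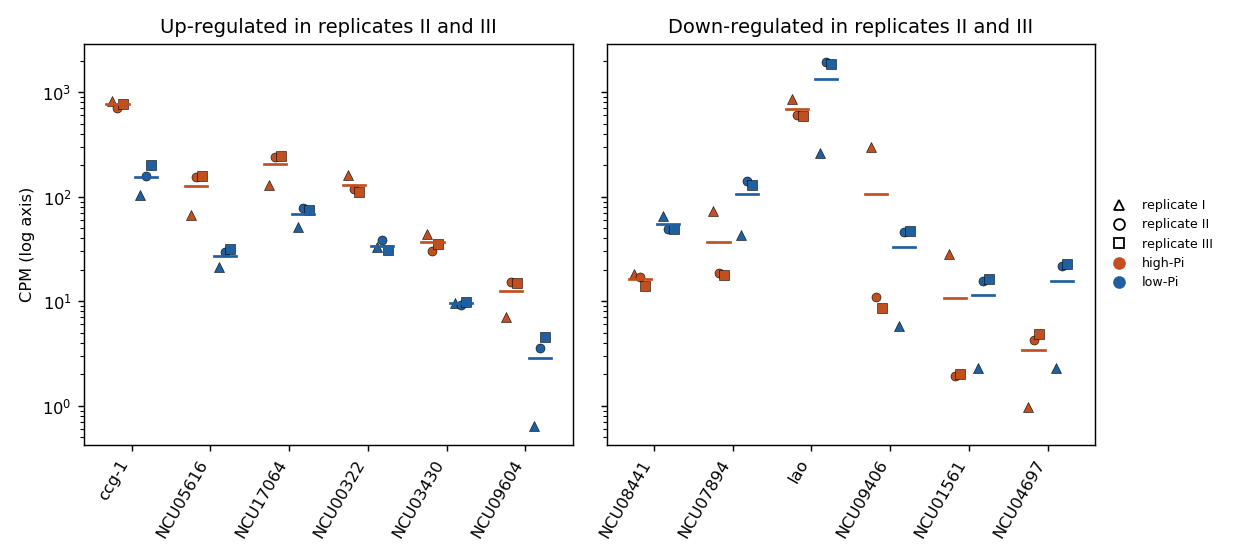
CPM on a log axis for 6 up-regulated (left) and 6 down-regulated DEGs (right) of replicates II and III, with high-Pi left of low-Pi for each gene, 1 symbol per replicate and a line at the mean of 3. In the left panel the media do not overlap, whereas in the right panel they overlap through replicate I for every gene but NCU08441.

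Among the down-regulated DEGs, NCU08441 (chromosome II, 4077024 to 4083472) held in all replicates, with 18.1, 17.2 and 14 CPM in high-Pi, against 65.2, 49.3 and 48.6 CPM in low-Pi (log2 fold change -1.65 ± 0.13, adjusted p = 6.50e-05). *lao* (NCU01066, chromosome V, 2812706 to 2815486) encodes L-amino acid oxidase, which frees ammonia from amino acids, and had 863, 611 and 589 CPM in high-Pi, against 262, 1938 and 1852 CPM in low-Pi. Replicates II and III fell (log2 fold change -1.66 ± 0.09, adjusted p = 7.11e-06), but in replicate I high-Pi was the higher library. NCU09406 (chromosome VII, 1217822 to 1220555) encodes a copper amine oxidase, which oxidises amines and also frees ammonia, and had 301, 11 and 8.71 CPM in high-Pi, against 5.75, 45.7 and 47.3 CPM in low-Pi. It fell in replicates II and III (log2 fold change -2.24 ± 0.15, adjusted p = 2.00e-05), while replicate I of high-Pi exceeded every other library. NCU04697 (chromosome VI, 421150 to 422696), a cyanide hydratase that converts cyanide to formamide, had 0.976, 4.3 and 4.9 CPM in high-Pi, against 2.31, 21.6 and 22.8 CPM in low-Pi (log2 fold change -2.27 ± 0.18, adjusted p = 5.80e-05). Here replicate I was lowest in both media and kept the direction.

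NCU07894 (chromosome IV, 1426447 to 1432506), which overlaps another annotated gene, showed the smallest adjusted p of all genes, with 73.1, 18.6 and 17.9 CPM in high-Pi, against 43.1, 143 and 129.6 CPM in low-Pi (log2 fold change -2.90 ± 0.11, adjusted p = 7.41e-07). Its replicate I libraries lay between those of the 2 media in replicates II and III, with high-Pi the higher. NCU01561 (chromosome II, 3081156 to 3083396), a hypothetical protein gene, had 28.6, 1.94 and 2.01 CPM in high-Pi, against 2.31, 15.8 and 16.4 CPM in low-Pi (log2 fold change -3.02 ± 0.21, adjusted p = 3.45e-05). In replicates II and III its low-Pi libraries were well above, and in replicate I the order was turned round. The same held for NCU09173 (32.9, 0.605 and 0.619 CPM in high-Pi, against 0.861, 3.59 and 3.21 CPM in low-Pi) and NCU09231 (6.51, 2.18 and 0.876 CPM in high-Pi, against 0.136, 9.38 and 8.38 CPM in low-Pi), both below in high-Pi in replicates II and III. *ccg-13*, a clock-controlled gene, had 0.408, 3.45 and 3.97 CPM in high-Pi, against 0.816, 12.9 and 12.2 CPM in low-Pi (log2 fold change -1.75 ± 0.20, adjusted p = 4.64e-04), and it was below 1 CPM in replicate I of both media. NCU07095 (6, 4 and 0 counts in high-Pi, against 0, 23 and 29 in low-Pi), NCU16488 (5, 3 and 10 counts in high-Pi, against 2, 20 and 33 in low-Pi) and NCU04569 (18, 14 and 11 counts in high-Pi, against 15, 25 and 75 in low-Pi) rested on few reads.

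In replicates II and III, *nuc-1*, *preg* and *nuc-2* of the Pi regulatory chain changed little, and none of them passed. Of 9 phosphate response genes 8 could be tested. In replicates II and III 2 of them rose (*pho-5* and *hex-1*, 25%) and 0 fell, against 10.9% and 9.43% of all genes. Their median log2 fold change was -0.08, against 0.0048 over all genes. The factor gene *nuc-1* had 99.9, 200.3 and 192 CPM in high-Pi, against 263, 189 and 192 CPM in low-Pi. Replicates II and III were level between the media (log2 fold change 0.04 ± 0.09, adjusted p = 0.793), and replicate I was lower in high-Pi. The cyclin gene *preg* had 77.9, 74.3 and 86.1 CPM in high-Pi, against 119, 95.4 and 89.6 CPM in low-Pi. All its high-Pi libraries lay below all its low-Pi libraries, yet neither fit called it (log2 fold change -0.21 ± 0.11, adjusted p = 0.212 in replicates II and III, unadjusted p = 0.134 over 6 libraries). *nuc-2* had 79.4, 72.6 and 55 CPM in high-Pi, against 98.7, 53.1 and 50.8 CPM in low-Pi (log2 fold change 0.29 ± 0.13, adjusted p = 0.15).

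Of the genes that take up or release Pi, the permease gene *pho-5* (NCU08325, chromosome IV, 2396703 to 2398930) stood out. It had 20.5, 36.8 and 30.0 CPM in high-Pi, against 50.3, 14.4 and 13.9 CPM in low-Pi. In replicates II and III it was more abundant in high-Pi (log2 fold change 1.24 ± 0.15, adjusted p = 5.09e-04), and in replicate I less abundant, with a log2 ratio of -1.29, so that the 6-library change was 0.15 ± 0.55 with an unadjusted p of 0.793. The alkaline phosphatase gene *pho-2* had 7.1, 8.17 and 6.24 CPM in high-Pi, against 6.3, 9.43 and 8.2 CPM in low-Pi (log2 fold change -0.30 ± 0.21, adjusted p = 0.365), and its media overlapped. The acid phosphatase gene *pho-3* was scarce, with 37, 11 and 13 counts in high-Pi, against 30, 20 and 12 in low-Pi (log2 fold change -0.22 ± 0.53, adjusted p = 0.815). The other permease gene, *pho-4*, was listed at 0 counts in all 6 libraries. It has 2 annotated transcripts, and so does the actin gene *act*, a qPCR reference of the study, which held 1, 0 and 0 counts in high-Pi, against 0, 0 and 0 in low-Pi. Of genes with more than 1 annotated transcript, 29.4% were listed at 0 in all 6 libraries, against 5.41% of genes with 1, so a 0 of such a gene is not read here as absence. *hex-1*, which encodes the main protein of the Woronin bodies that plug damaged hyphae, had 1946, 2418 and 2335 CPM in high-Pi, against 2103, 1803 and 1813 CPM in low-Pi (log2 fold change 0.39 ± 0.09, adjusted p = 0.0104). The MAP kinase gene *mak-2* had 154, 17 and 28 counts in high-Pi, against 29, 47 and 56 in low-Pi (log2 fold change -0.99 ± 0.35, adjusted p = 0.0759), also with 2 annotated transcripts.

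**Figure D3:**
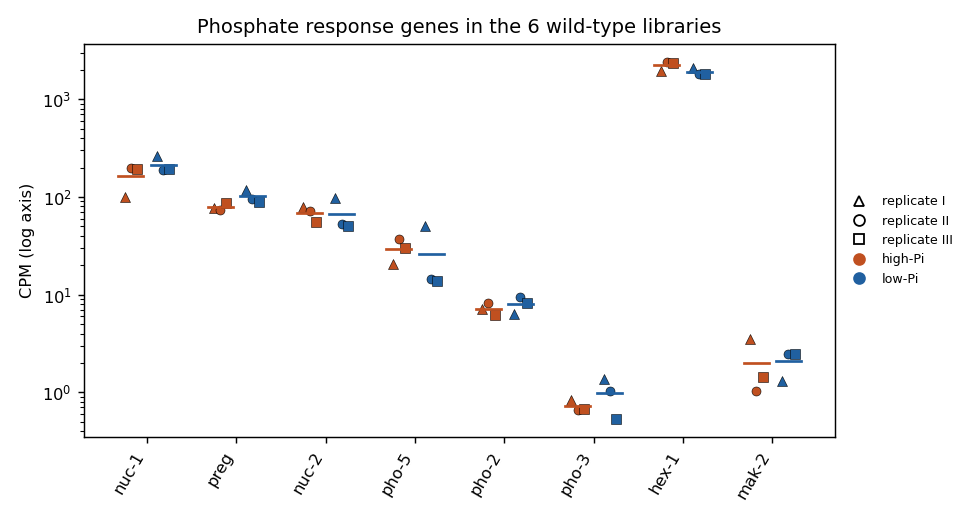
CPM on a log axis of the 8 phosphate response genes tested, with high-Pi left of low-Pi, 1 symbol per replicate and a line at the mean of 3. For *pho-5*, replicates II and III of high-Pi (36.8 and 30.0 CPM) lie above those of low-Pi (14.4 and 13.9 CPM), and replicate I has the opposite order.

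Most genes of protein synthesis tested rose in replicates II and III. Of 12 tested genes for ribosomal proteins and translation factors, a list drawn up after values were seen, 9 rose and 0 fell, against 10.9% and 9.43% of all genes, with a median log2 fold change of 0.49. *crp-5*, for a cytoplasmic ribosomal protein, had 955, 3304 and 2810.2 CPM in high-Pi, against 3564, 1593 and 1916 CPM in low-Pi (log2 fold change 0.80 ± 0.12, adjusted p = 0.00128). The same order was seen in *eif5A*, for translation factor eIF5A (981, 2806 and 3040.2 CPM in high-Pi, against 3766, 1781 and 1930.3 CPM in low-Pi), and *cyh-2*, for the ribosomal protein behind cycloheximide resistance (1414, 3088 and 4059 CPM in high-Pi, against 4925, 2561 and 2454 CPM in low-Pi). *crp-2*, *crp-3*, *crp-10* and *un-16* rose by log2 0.64, 0.60, 0.46 and 0.75. In *crp-5*, *eif5A* and *cyh-2* replicate I ran the other way, with the lowest of the 6 values in high-Pi and the highest in low-Pi. All 12 were lower in high-Pi in the pair of replicate I, with a median log2 ratio of -1.87, and the median 6-library change was -0.27.

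Ribosome biogenesis genes differed widely between replicates. Of 68 tested genes with such product names in the study's tables, a list that the study in part chose on these libraries, 10 (14.7%) rose and 1 (1.47%) fell in replicates II and III, with a median of 0.24. The numbers moved with the high-Pi libraries. Without replicate II of high-Pi 12 rose and 6 fell, with a median of 0.052, and without replicate III 27 rose and 2 fell, with a median of 0.38. NCU03702, for the nucleolar rRNA methyltransferase fibrillarin, had 159.9, 351 and 319 CPM in high-Pi, against 1075, 229 and 216 CPM in low-Pi (log2 fold change 0.59 ± 0.09, adjusted p = 0.00217). NCU08595, for a ribosome biogenesis protein, had 6.22, 17.1 and 15.7 CPM in high-Pi, against 65.4, 7.82 and 9.27 CPM in low-Pi (log2 fold change 0.94 ± 0.18, adjusted p = 0.00491). NCU05235, for RLP24, and NCU01331, for an snRNP and snoRNP protein, rose by log2 0.82 and 0.72. The one that fell was NCU06217, for nucleolar protein 4 (15.7, 18.6 and 15.7 CPM in high-Pi, against 82.2, 24.1 and 25.4 CPM in low-Pi; log2 fold change -0.53 ± 0.15, adjusted p = 0.0279). In replicate I of low-Pi all 68 genes lay above both other low-Pi libraries, by a median of 3.06 on the log2 scale, while in high-Pi the median difference of replicate I was -0.01. The pair of replicate I therefore had all 68 lower in high-Pi (median log2 ratio -3.01), and the 6-library median was -1.61.

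Some mitochondrial genes rose in replicates II and III, 33.3% of import genes and 21.4% of complex I subunits, against 10.9% of all genes. Of 18 tested genes for import of proteins into mitochondria, 6 rose and 0 fell, among them *tim9*, for a small chaperone of the intermembrane space, with 32.9, 92.4 and 87.2 CPM in high-Pi, against 109.6, 55 and 56.1 CPM in low-Pi (log2 fold change 0.69 ± 0.10, adjusted p = 0.00126), and *tim8* (log2 fold change 0.61 ± 0.11, adjusted p = 0.00309), *tom6* (log2 0.47) and *tom20* (log2 0.36). All 6 were lower in high-Pi in replicate I. Of 28 tested subunits of complex I, the first enzyme of the respiratory chain, 6 rose and 0 fell, and here replicate I kept the direction in all 6. *nuo21.3b* had 151, 105 and 96.6 CPM in high-Pi, against 79.2, 62.3 and 66.3 CPM in low-Pi (log2 fold change 0.65 ± 0.10, adjusted p = 0.00205), *nuo20.9* 105, 93.6 and 106 CPM in high-Pi, against 69, 63 and 68.6 CPM in low-Pi (log2 fold change 0.60 ± 0.11, adjusted p = 0.00384) and *nuo10.6* 83, 51.2 and 65.3 CPM in high-Pi, against 47.7, 37.4 and 36.4 CPM in low-Pi (log2 fold change 0.66 ± 0.13, adjusted p = 0.00618). These 3, and *nuo29.9* (log2 0.53), did not overlap between the media over the 6 libraries. In the pair of replicate I, 27 of the 28 were higher in high-Pi. The cytochrome c gene *cyc-1* had 1206, 3589.8 and 3891 CPM in high-Pi, against 4286, 2321 and 2291 CPM in low-Pi (log2 fold change 0.70 ± 0.09, adjusted p = 7.03e-04), with replicate I again reversed. Both lists were drawn up after values were seen.

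Some genes of purine synthesis also rose, 57.1% of those tested, against 10.9% of all genes. For amino acid synthesis the share that rose, 16.7%, was nearer to that of all genes. Of 7 purine genes 4 rose and 0 fell, led by *ad-7* (37.6, 87.3 and 63.6 CPM in high-Pi, against 220.1, 41.4 and 38.7 CPM in low-Pi; log2 fold change 0.91 ± 0.14, adjusted p = 0.00212), with *ad-5*, *gua-3* and *ad-3A* at log2 0.48, 0.36 and 0.34. Of 60 tested genes of amino acid synthesis, 10 (16.7%) rose and 3 (5%) fell. *cys-4* had 189, 203 and 179 CPM in high-Pi, against 316, 119 and 109 CPM in low-Pi (log2 fold change 0.74 ± 0.10, adjusted p = 0.00116), the sulfate permease gene *cys-14* had 18.3, 16.3 and 13.7 CPM in high-Pi, against 113, 9.64 and 7.98 CPM in low-Pi (log2 fold change 0.77 ± 0.19, adjusted p = 0.0166), and *cys-2* and *met-8* changed by log2 0.59 and 0.51. In these 4, and in *aro-6* (log2 0.50), the pair of replicate I had the opposite direction. *arg-10* and *arg-12*, of arginine synthesis, rose by log2 0.46 and 0.33 and were higher in high-Pi in replicate I too. *arg-4* fell, with 612, 557 and 576 CPM in high-Pi, against 652, 755 and 756 CPM in low-Pi (log2 fold change -0.42 ± 0.09, adjusted p = 0.00802), and its libraries did not overlap.

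The nitrogen genes that passed all fell. Of 13 tested, 6 (46.2%, against 9.43% of all genes) fell in replicates II and III and 0 rose, with a median of -0.39. They were *nit-10*, for the nitrate transporter (3501, 2256 and 2009 CPM in high-Pi, against 2286, 4365 and 4031 CPM in low-Pi; log2 fold change -0.98 ± 0.10, adjusted p = 2.11e-04), *nit-3*, for nitrate reductase (2309, 1228 and 926 CPM in high-Pi, against 1825, 2155 and 2040.0 CPM in low-Pi; log2 fold change -0.96 ± 0.13, adjusted p = 7.32e-04), *nit-6*, for nitrite reductase (log2 fold change -0.55 ± 0.12, adjusted p = 0.00864), *nit-2*, for the GATA factor that turns on such genes (185, 257 and 287 CPM in high-Pi, against 263, 355 and 358 CPM in low-Pi; log2 fold change -0.39 ± 0.09, adjusted p = 0.0153), and, of purine breakdown, *xdh-1* for xanthine dehydrogenase (log2 fold change -0.93 ± 0.17, adjusted p = 0.00479) and *aln-1* for allantoinase (log2 fold change -0.39 ± 0.09, adjusted p = 0.0122). In the pair of replicate I *nit-2* alone of the 6 was lower in high-Pi, and no member had all 6 libraries apart.

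More heat shock genes fell than rose, and their levels were very unequal between replicates. Of 11 tested, 5 (45.5%, against 9.43% of all genes) fell in replicates II and III and 1 rose. *hsp98*, for the chaperone that takes protein aggregates apart, had 147, 8011 and 7950.1 CPM in high-Pi, against 1668, 11858 and 11137 CPM in low-Pi (log2 fold change -0.53 ± 0.09, adjusted p = 0.00295). *hsp70-1* had 2000.2, 11155 and 11757 CPM in high-Pi, against 4793, 17531 and 16869 CPM in low-Pi (log2 fold change -0.59 ± 0.09, adjusted p = 0.00187), and *hsp80*, of the Hsp90 family, 1156, 6474 and 6294 CPM in high-Pi, against 2931, 8344 and 8203 CPM in low-Pi (log2 fold change -0.38 ± 0.09, adjusted p = 0.0138). For these 3 genes all libraries of replicate I lay below all others, and the pair of replicate I also had the lower value in high-Pi. *grp78*, the chaperone of the endoplasmic reticulum, fell (log2 fold change -0.43 ± 0.09, adjusted p = 0.00915) but was the higher in high-Pi in replicate I (1454, 1560.5 and 1409 CPM in high-Pi, against 485, 1999.8 and 1989.5 CPM in low-Pi). The one that rose was *hsp70-2* (log2 fold change 0.43 ± 0.10, adjusted p = 0.0144). Over the 11 genes the median difference of replicate I from replicates II and III was -2.52 on the log2 scale in high-Pi and -1.84 in low-Pi, and the part of this difference in the other results of replicates II and III was not tested.

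**Figure D4:**
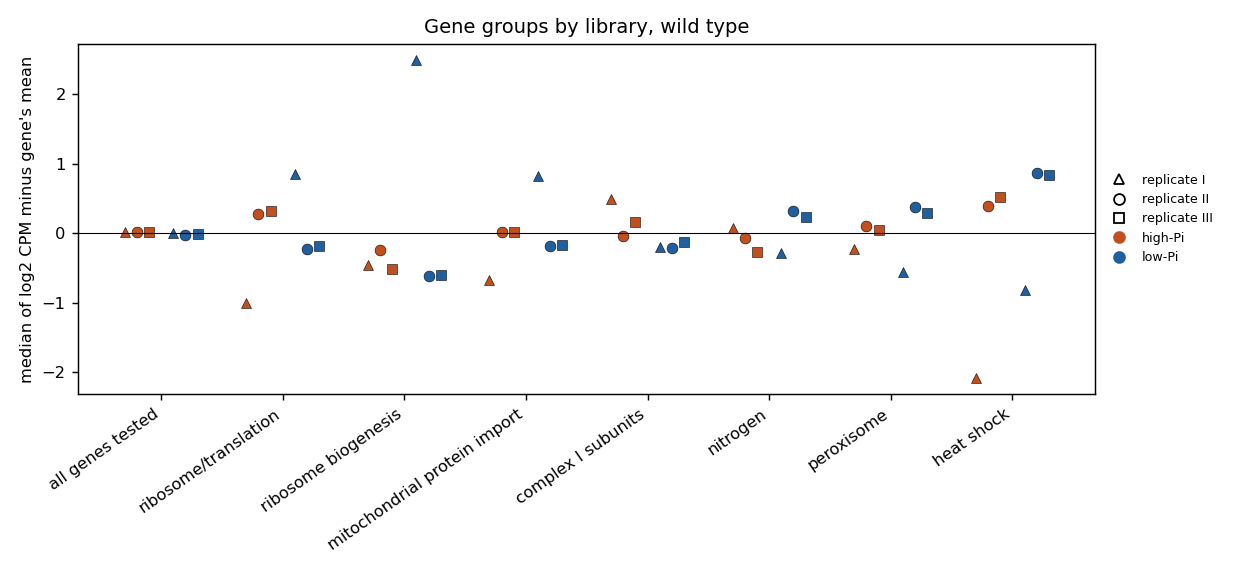
For each gene group and library, the median over the group's tested genes of log2 CPM minus the gene's mean over the 6 libraries, with high-Pi left of low-Pi and 1 symbol per replicate. All genes together lie at 0, ribosome biogenesis is at 2.50 in replicate I of low-Pi, and heat shock is at -2.08 and -0.82 in replicate I of high-Pi and low-Pi.

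In peroxisomal, glycolytic and cell fusion genes, more members fell than rose, where 9.43% of all genes fell and 10.9% rose. Of 21 tested genes of peroxisomes and fatty acid oxidation, 7 (33.3%) fell and 1 rose (*hex-1*). *pex3*, for a protein of peroxisome assembly, had 38, 62.2 and 63.4 CPM in high-Pi, against 54.3, 98.3 and 92.2 CPM in low-Pi (log2 fold change -0.60 ± 0.10, adjusted p = 0.00258), and *fox-2*, for an enzyme of β-oxidation, changed by log2 -0.45. Of the 7, 3 were lower in high-Pi in replicate I. Of 20 genes listed for glycolysis and fermentation, a list that also takes in *acu-5*, 5 fell (25%) and 1 rose. *gpi-1*, for glucose-6-phosphate isomerase, had 317, 384 and 401 CPM in high-Pi, against 217, 569 and 539.8 CPM in low-Pi (log2 fold change -0.50 ± 0.09, adjusted p = 0.00342), and *pgk*, for phosphoglycerate kinase, *adh-1*, for alcohol dehydrogenase, and *acu-5* changed by log2 -0.41, -0.73 and -0.34. Of 14 cell fusion genes 6 (42.9%) fell and 1 rose. Those that fell included *ham-6* (104, 65.3 and 92.8 CPM in high-Pi, against 77.3, 143 and 154 CPM in low-Pi; log2 fold change -0.91 ± 0.15, adjusted p = 0.00237) and 2 kinases of the cascade above MAK-2, *nrc-1* (log2 fold change -0.66 ± 0.11, adjusted p = 0.0027) and *mek-2* (log2 fold change -0.70 ± 0.18, adjusted p = 0.0208). *Prm1*, for a membrane protein of fusing cells, rose, with 79.5, 24.7 and 25.3 CPM in high-Pi, against 18.5, 14.1 and 13.6 CPM in low-Pi (log2 fold change 0.85 ± 0.14, adjusted p = 0.0027) and no overlap. The peroxisome and cell fusion lists were drawn up after values were seen.

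**Figure D5:**
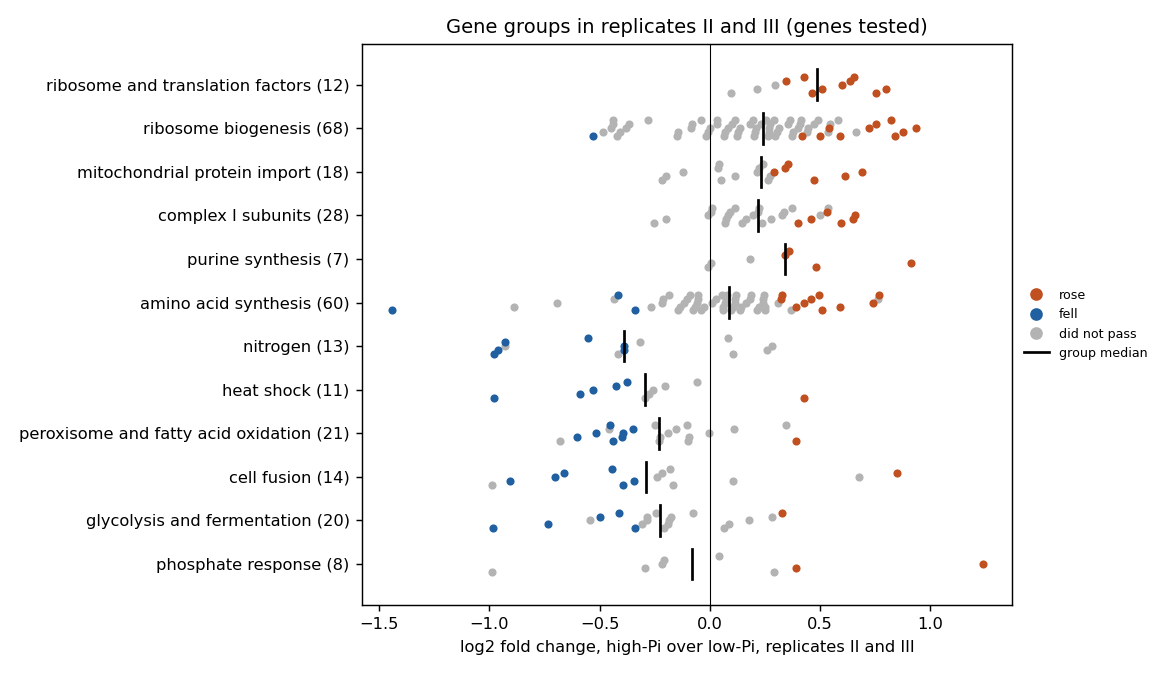
Log2 fold changes of high-Pi over low-Pi in replicates II and III for the tested genes of 12 groups (number of genes in brackets), coloured by whether a gene rose, fell or did not pass the test, with a line at the group's median. Medians lie between -0.39 for nitrogen and 0.49 for ribosome and translation factors.

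How many members passed in each group depended on single libraries. Without replicate II or without replicate III of low-Pi, 5 of the translation genes rose in either case, 4 or 2 of the ribosome biogenesis genes, 1 or 2 of the import genes, 2 and 2 of complex I, 1 and 1 of purine synthesis, 2 or 1 of amino acid synthesis and 1 and 1 of the phosphate response. *hex-1* was the phosphate response gene that did not pass then (adjusted p = 0.215 and 0.216, edgeR). Of those that fell, 3 or 4 nitrogen genes, 1 or 2 heat shock genes, 0 or 2 peroxisome genes, 2 and 2 glycolysis genes, 3 or 2 cell fusion genes and 0 and 0 genes of amino acid synthesis passed. Over all genes too, as given above, fewer passed without a low-Pi library. Without replicate II or III of high-Pi, the median log2 fold change of the peroxisome genes was -0.27 or -0.23. Of 110 genes that were named by rule and passed in replicates II and III, 46 passed in each of the 4 fits without 1 library, and 64 did not pass without replicate II or III of low-Pi, 40 of them in neither fit. Those that passed in neither included *nit-2*, *aln-1*, *hsp80*, *hsp70-2*, *grp78*, *cys-14*, *arg-4*, *cyh-2*, NCU06217, *nuo29.9*, *tom6*, *pgk* and the DEG NCU02578, some of them named after their values were seen. *hsp98* and *nit-6* did not pass without replicate II of low-Pi (adjusted p = 0.11 and 0.0877, edgeR), nor did *mek-2* without replicate III of low-Pi (adjusted p = 0.203). In a fit of replicates II and III of both strains, *gua-3*, *ad-3A* and *arg-12* did not pass (adjusted p = 0.0503, 0.0561 and 0.081).

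Conidiation and clock-controlled genes were divided, with 10.5% that rose and 26.3% that fell, against 10.9% and 9.43% of all genes. Of 19 tested, 2 rose (*ccg-1* and *bli-3*, the second with 40.2, 19.1 and 19.5 CPM in high-Pi, against 15.4, 10.2 and 12.2 CPM in low-Pi) and 5 fell. Those that fell were *ccg-13*, *ccg-14* (22.4, 64.9 and 99.2 CPM in high-Pi, against 21.1, 144 and 139 CPM in low-Pi), *ccg-9*, for trehalose synthase (9.12, 40.2 and 48 CPM in high-Pi, against 8.74, 71.5 and 79.9 CPM in low-Pi), *ccg-8* (49.6, 93.9 and 113 CPM in high-Pi, against 26.7, 159 and 155 CPM in low-Pi) and *ccg-4*. For *ccg-9* and *ccg-14* both libraries of replicate I were lower than all others and nearly equal between the media. The most abundant member, *ccg-6*, had 1547, 3063 and 3643 CPM in high-Pi, against 3423, 4115 and 4169.9 CPM in low-Pi and did not pass (log2 fold change -0.31 ± 0.10, adjusted p = 0.0594). The hydrophobin gene *eas*, a marker of conidia, had 2.29, 4.66 and 5.16 CPM in high-Pi, against 3.22, 4.9 and 4.95 CPM in low-Pi (log2 fold change -0.00 ± 0.23, adjusted p = 0.994).

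The genes with the largest changes in the study's own comparison were read against replicates II and III. They were chosen by the study on these same libraries and are no independent evidence of a direction. Of its 10 top up-regulated genes, all 10 were higher in high-Pi in replicate I, and in replicates II and III 6 rose, 1 fell (NCU09173) and 3 did not pass. Among those that rose, NCU03921 for a mitochondrial chaperone of the Bcs1 type had 333, 87.2 and 73.3 CPM in high-Pi, against 27.8, 42.4 and 39.3 CPM in low-Pi (log2 fold change 0.97 ± 0.12, adjusted p = 5.13e-04), NCU07752 had 95.7, 55.5 and 56.9 CPM in high-Pi, against 9.02, 19.9 and 20.2 CPM in low-Pi (log2 fold change 1.48 ± 0.11, adjusted p = 5.08e-05) and NCU08447 had 30.0, 3.69 and 3.97 CPM in high-Pi, against 2.63, 1.82 and 1.56 CPM in low-Pi (log2 fold change 1.18 ± 0.29, adjusted p = 0.0186). Replicate I of high-Pi was the highest library for all 3. NCU03921 did not pass in a fit of replicates II and III of both strains (log2 fold change 0.95, adjusted p = 0.298), and NCU08447 did not pass without replicate II or III of low-Pi (adjusted p = 0.0925 and 0.184, edgeR). The ammonium transporter gene NCU06613 (22.8, 2.66 and 0.567 CPM in high-Pi, against 2.67, 1.62 and 2.01 CPM in low-Pi; log2 fold change -0.21 ± 0.56, adjusted p = 0.835) and the genes NCU12021 (44, 4.96 and 4.79 CPM in high-Pi, against 5.53, 3.18 and 2.99 CPM in low-Pi; log2 fold change 0.66 ± 0.25, adjusted p = 0.0849) and NCU12022 (54.3, 5.63 and 3.71 CPM in high-Pi, against 9.33, 3.54 and 2.94 CPM in low-Pi), which overlap each other on chromosome VII, did not pass. Another gene the study names, NCU06977, had 51.9, 14.2 and 14.6 CPM in high-Pi, against 2.9, 10.9 and 12.3 CPM in low-Pi, with the media apart in all libraries but a small difference in replicates II and III (log2 fold change 0.31 ± 0.17, adjusted p = 0.218).

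Of the 10 top down-regulated genes, all 10 were lower in high-Pi in replicate I and 1, the cyanide hydratase gene NCU04697, fell in replicates II and III. NCU06272, for the rRNA biogenesis protein RRP5, had 10.9, 22.8 and 15.1 CPM in high-Pi, against 184, 15 and 14.1 CPM in low-Pi (log2 fold change 0.38 ± 0.20, adjusted p = 0.207). NCU03321, for a ribosome biogenesis protein, had 18.3, 36.1 and 27.9 CPM in high-Pi, against 287, 28 and 27.6 CPM in low-Pi (log2 fold change 0.20 ± 0.14, adjusted p = 0.354), and NCU02729, for a transducin family protein, 10.4, 21.5 and 19.9 CPM in high-Pi, against 191, 19.9 and 18.7 CPM in low-Pi (log2 fold change 0.10 ± 0.14, adjusted p = 0.66). In each, replicate I of low-Pi was far above the other 5 libraries. For NCU06272 and NCU03321 the fold change over 6 libraries was -2.13 and -2.06 on the log2 scale, and that of replicates II and III had the other sign. The same pattern held for NCU00059, NCU07058, NCU06118 and NCU00337, with replicates II and III at log2 0.41, 0.40, 0.37 and 0.29, and none passed. NCU04439, for the RNA helicase DBP-4 (log2 -0.01), and NCU09756 (-0.35) did not pass either, and NCU01651, outside the study's list, was at log2 -2.46 over 6 libraries and 0.13 in replicates II and III.

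Some genes had a higher fitted 6-library level in high-Pi, the opposite sign in replicates II and III, and their highest value in replicate I of high-Pi. Besides NCU09406, these included NCU05004 (74.5, 3.57 and 4.95 CPM in high-Pi, against 5.12, 15.3 and 13 CPM in low-Pi; log2 fold change -1.72 ± 0.22, adjusted p = 6.66e-04), *dak-1*, for dihydroxyacetone kinase (90.6, 31.6 and 24.7 CPM in high-Pi, against 15.8, 30.1 and 26.6 CPM in low-Pi; log2 fold change -0.01 ± 0.15, adjusted p = 0.967), NCU03132 (212, 29.1 and 24.6 CPM in high-Pi, against 61.6, 29.5 and 32.9 CPM in low-Pi; log2 fold change -0.22 ± 0.13, adjusted p = 0.28) and *parp*, for poly(ADP-ribose) polymerase (123, 29.2 and 24.5 CPM in high-Pi, against 22.2, 29.4 and 34.7 CPM in low-Pi; log2 fold change -0.26 ± 0.14, adjusted p = 0.219). NCU05004 fell in replicates II and III, and the other 3 did not pass. Of the reference genes, *Bml* (β-tubulin) had 631, 886 and 772 CPM in high-Pi, against 830.4, 687 and 613 CPM in low-Pi and rose slightly in replicates II and III (log2 fold change 0.35 ± 0.10, adjusted p = 0.0366; adjusted p = 0.156 and 0.443 without replicate II or III of low-Pi), *gpd-1* had 1466, 2829 and 3422 CPM in high-Pi, against 3107, 3653 and 3411 CPM in low-Pi (log2 fold change -0.18 ± 0.11, adjusted p = 0.277) and *tef-1*, for a translation elongation factor, had 16403, 26168 and 19907 CPM in high-Pi, against 39883, 22216 and 20834 CPM in low-Pi (log2 fold change 0.10 ± 0.13, adjusted p = 0.632). Further genes named above that overlap another annotated gene, and whose counts are less certain for it, include NCU10144, NCU03921, NCU06613, NCU03132, *dak-1*, *hex-1*, *mak-2*, *pgk*, *tim8*, *nuo10.6*, *bli-3*, *arg-12*, *ad-3A*, *crp-3*, *crp-10* and *un-16*.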

How the data were processed

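RNA-Seq was performed by the authors on an Illumina HiSeq2000 as 100 bp paired-end reads, trimmed at a Phred score of 20, checked with FastQC 0.11.2 and mapped to the NC12 genome with Bowtie2 2.1.0. The authors deposited raw counts per gene, without normalization, 1 column per library. The counting tool and its use of strand are not given in the sources used here, so genes that overlap another gene are uncertain. Tables of the authors' own DESeq (1.28.0) comparisons, with signals, fold changes and p-values, were not used.

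Counts were analysed with edgeR 4.0.16 (limma 3.58.1, R 4.3.3): TMM factors, filterByExpr, a robust quasi-likelihood fit, and Benjamini-Hochberg adjustment over all genes tested. The 6 wild-type libraries were fitted alone, and replicates II and III again alone with their own factors. CPM values use the 6-library TMM factors and log2 values a prior count of 2. A count of 0 allows up to 3 counts, 0.0681 to 0.182 CPM per library. That limit covers counting error only. Symbols and positions came from a RefSeq table of NC12, which matched 9729 of 9730 genes.

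Libraries with the same number deviated together from their group means (correlations across genes 0.364, 0.213 and 0.364 for replicates I, II and III). The labels share only the numbers, so the pairing rests on these correlations. The 3 correlations are not separate evidence, since deviations within a group sum to 0. Alternatives were DESeq2 1.42.0, RLE factors, no count filter, at least 10 counts in every library, the replicate block, mating-type dependent genes left out, the adjusted p-value alone, all 12 libraries or the 8 of replicates II and III in 1 fit, voom with sample quality weights, and each library left out. The fits were tested on simulated data. In these each gene had the same spread in every library, so a replicate that stands apart was not simulated.

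Genes were named when they belong to the phosphate response list, had the largest changes among non-overlapping DEGs (or the smallest unadjusted p), are in the study's wild-type top lists or text, had the smallest p in a gene list, had opposite signs in the 2 fits, or are qPCR references. Those named for the unadjusted p also had to have media that did not overlap over all wild-type libraries, and a change at the fold change threshold. Further genes were chosen after their values were seen. The comparison, genes and lists were chosen with earlier results of these data known. No batch or date is given for the libraries.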

Additional observations from a re-analysis of the deposited data

Results flagged for a closer look

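For 11 of 20 DEGs, the 10 with the largest changes in each direction in replicates II and III, the response to Pi differed between strains, by a test of the interaction in an edgeR fit of the 8 libraries of replicates II and III (adjusted p at most 0.05 and a difference of at least 1.5 on the log2 scale). The genes were chosen for their change in these wild-type libraries, so the differences favour large values. The share of all genes that passed this test is not given here, so 11 of 20 cannot be read as an excess. Given as the log2 response of the libraries labelled *mus-52* minus that of the wild type, they were -4.98 for NCU09604, -4.09 for *ccg-1*, -3.91 for NCU06591, -3.83 for NCU04197, -3.67 for NCU05616 and -3.16 for NCU17044. All 6 were up-regulated in the wild type, and their estimates for *mus-52* were negative (*ccg-1* at -2.08, against 2.02 in the wild type in this fit). The differences were 3.52 for NCU04697, 2.97 for NCU07894, 1.88 for NCU09406, 1.72 for NCU01561 and 1.69 for *ccg-13*, which were down-regulated in the wild type. The study gives the wild type as *mat A* and the *mus-52* strain as *mat a*, so mating type and *mus-52* cannot be told apart here. Of these genes, *ccg-1* and NCU01561 are on the study's list of mating-type dependent genes. Groups of 3 libraries were too small to be searched for outlying samples.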

How the results depend on the processing

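Over 6 libraries the counts of up- and down-regulated DEGs were 0 and 0, and stayed 0 with RLE factors, without a count filter, with at least 10 counts in every library, with the replicate block, on the adjusted p-value alone, without mating-type dependent genes, and in each fit that left out 1 library (lowest 0, highest 0). They were 27 and 2 with DESeq2, 16 and 1 with all 12 libraries in 1 fit, and 45 and 24 with voom and sample quality weights. In replicates II and III the counts were 29 and 20, and 807 and 701 on the adjusted p-value alone. The replicate block gave 33 and 24 and changed no call over 6 libraries. Leaving out 1 library gave 24 to 54 up and 16 to 48 down, and the lone library of its medium is then assumed to vary like the other medium. The cause of these differences was not tested. DESeq2, RLE factors, no filter, at least 10 counts in every library, the replicates II and III of all 4 groups in 1 fit, and leaving out mating-type dependent genes kept the counts within 21 to 34 up and 15 to 24 down. For 110 named genes that passed in replicates II and III, no sign reversed in any of these fits. The genes were chosen for passing in libraries that these fits use again, so few reversals could occur. Of 641 values from the other fits 15 lost significance, and of 440 values from fits without 1 library 111 did. DESeq2 gave no adjusted p for 10 of the 110 genes, which are left out of these numbers. In the fit of all 6 libraries, 3 of the 49 DEGs of replicates II and III had the opposite sign, and 2 were not tested. For the 10 genes nearest to a call over 6 libraries, 17 of 68 values from the other fits passed. No sign reversed, but these genes were chosen for media that do not overlap, which leaves little room for a reversal. Depth limits the scarce DEGs, those given as counts above.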

Other observations

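Further gene groups were counted in replicates II and III, where 10.9% of all genes rose and 9.43% fell. Of 22 tested cell wall protein genes 6 fell and 3 rose, with *ncw-5* (0.545, 1.57 and 3.35 CPM in high-Pi, against 0.816, 8.23 and 6.33 CPM in low-Pi; log2 fold change -1.54 ± 0.33, adjusted p = 0.0091) and *acw-8* (246, 286 and 240.4 CPM in high-Pi, against 175, 440.3 and 445 CPM in low-Pi; log2 fold change -0.75 ± 0.10, adjusted p = 8.95e-04), *ncw-2* and *gel-4* (log2 -0.41 and -0.41) among those that fell, and *gel-3* among those that rose (log2 fold change 0.38 ± 0.09, adjusted p = 0.0141). Of 25 genes of the cell wall and cytoskeleton 2 rose (*kin-3*, for a kinesin, at log2 0.80, and *Bml*) and 1 fell (*chs-5*, for a chitin synthase; log2 fold change -0.44 ± 0.09, adjusted p = 0.00816), and *tba-2* did not pass (log2 0.23). Of 60 tested glycoside hydrolases 3 rose and 3 fell, among them *gh76-3* (54.1, 55.4 and 55.8 CPM in high-Pi, against 37, 35.8 and 36.8 CPM in low-Pi; log2 fold change 0.61 ± 0.10, adjusted p = 0.00284), which had no overlap over the 6 libraries, *gh76-5* (log2 0.98), *gh18-5* (-0.52) and *gh13-6* (-0.48). Of 10 oxidative stress genes 3 rose and 3 fell, and of those that fell *cat-3* did not pass in either fit without 1 low-Pi library. The catalase gene *cat-1* rose, with 132, 70.4 and 72.8 CPM in high-Pi, against 32.5, 47.9 and 44.3 CPM in low-Pi (log2 fold change 0.64 ± 0.10, adjusted p = 0.00236), and *cat-3* fell, with 37.9, 46.9 and 54.8 CPM in high-Pi, against 197, 71.7 and 75.7 CPM in low-Pi (log2 fold change -0.54 ± 0.11, adjusted p = 0.00818), both with no overlap over 6 libraries, while *cat-2* fell (log2 -0.52) and *gst-1* and *gst-2*, for glutathione S-transferases, rose (log2 1.08 and 0.66).

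Of 28 proteasome genes 3 rose and 2 fell, including *rpn-4* (251, 854 and 593 CPM in high-Pi, against 373, 1174 and 1148 CPM in low-Pi; log2 fold change -0.68 ± 0.14, adjusted p = 0.00856), *rpn-2* (log2 -0.30), *rpn-10* (0.36) and *pcb-1* (0.37). Of 14 vacuolar ATPase genes *vma-9* and *vma-16* rose (log2 0.55 and 0.32) and *vph-1* fell (-0.32), while *vma-1* did not pass (-0.21). Of 17 genes of the citric acid cycle *tca-17* rose (log2 0.42), and *tca-6*, *tca-7* and *tca-8* were at log2 -0.22, -0.21 and 0.17 and did not pass. Of 53 tested genes listed for the respiratory chain, which hold the complex I subunits above and *cyt* genes of mitochondrial gene expression, 8 rose and 2 fell. In the carotenoid list of 6, *al-3*, for geranylgeranyl diphosphate synthase, fell (78.1, 60.2 and 85.7 CPM in high-Pi, against 143, 118 and 108 CPM in low-Pi; log2 fold change -0.63 ± 0.15, adjusted p = 0.0145), with no overlap over 6 libraries, and *al-2*, *cao-1* and *cao-2* did not pass (log2 0.21, 0.20 and -0.18). But *al-3* did not pass without replicate II of low-Pi, nor in a fit of replicates II and III of both strains (adjusted p = 0.0977, edgeR). In the clock and light list of 12 tested genes *phr*, the photolyase gene, rose (log2 fold change 0.60 ± 0.13, adjusted p = 0.0091) and *fwd-1* fell (log2 fold change -0.40 ± 0.09, adjusted p = 0.0152), and the clock gene *frq* (log2 0.48) and *csp-1* (-0.26) did not pass. Of 27 DNA repair genes *mei-3* and *mus-52* rose and *uvs-5* fell, *mus-59* did not pass (log2 -0.49), and *mus-52* itself had 73.7, 36.9 and 24 CPM in high-Pi, against 38.2, 20.3 and 19.3 CPM in low-Pi in the wild type (log2 fold change 0.62 ± 0.19, adjusted p = 0.0418). Of 185 genes that the study lists as mating-type dependent, 44 (23.8%) rose and 33 (17.8%) fell. Without replicate II or without replicate III of low-Pi, fewer members of these groups passed, with 3 or 2 cell wall protein genes that fell and 0 that rose, 1 and 1 glycoside hydrolase that rose and 0 that fell, 1 and 1 proteasome gene that fell, 0 and 0 DNA repair genes, and 25 or 24 mating-type dependent genes that rose and 13 or 14 that fell.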
